A study of Mus musculus with 20 samples.

Results

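LβT2 gonadotrope cells that received 4 pulses of gonadotropin-releasing hormone (GnRH) over 4 h at 100 nM were compared with the same cells given 4 pulses at 10 nM. The comparison rests on 4 of the 20 arrays of the series, taken by their titles: 2 arrays at 100 nM, which carry the code letters A and D, and 2 arrays at 10 nM, which carry B and C. LβT2 is an established mouse pituitary line, immortalised with the SV40 T antigen under a luteinizing hormone beta promoter. All cells were attached to Cytodex 3 microcarrier beads, kept in serum-free medium and perifused in columns, with GnRH as the only agent that differed between groups. Each pulse lasted 2 min, and pulses at 58 min intervals fit 4 times into the 240 min of perifusion. For reference, the unstimulated cells (2 arrays, A and D) and the cells given 1 pulse, 8 pulses or tonic GnRH (2 arrays at each dose, with the same letters as here) were used, and 2 arrays of 2 pulses at 100 nM entered the model only. Total RNA was hybridised to 1-colour Affymetrix mouse arrays, on which a transcript is read by a probe set, and the values are MAS5 signals in arbitrary units.

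GnRH reaches the pituitary in pulses, and both the rate and the size of the pulses shape which gonadotropin subunit genes are transcribed. Its receptor couples to Gq, calcium and protein kinase C, and through the MAP kinases it induces immediate early genes: EGR1 acts on the luteinizing hormone beta gene, and the FOS and JUN proteins, which pair as AP-1, act on the follicle-stimulating hormone beta gene. Feedback regulators follow, among them the NAB corepressors of EGR1, dual-specificity phosphatases that switch off MAP kinases, and RGS proteins that shorten Gq signalling.

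The letters limit the comparison. Every 100 nM array carries A or D and every 10 nM array B or C, so dose and letter cannot be told apart in a difference between doses. The labels do not say that arrays with different letters came from separate cultures, so p-values measure the spread between these samples, which may be technical. The annotated number of pulses contradicted the title on 8 of the 20 samples, among them the 100 nM D array used here, whose entry reads none; both unstimulated arrays also have an entry of 100 nM. The 4 arrays had median signals of 712 to 823, within the 705 to 836 of all 20. Their log2 signals correlated at 0.973 within 100 nM, 0.973 within 10 nM and 0.947 to 0.959 across dose. RNA quality moved with the dose: the ratio of the 3' to the 5' Gapdh probe set, which rises as RNA is degraded, was 1.21 and 1.23 at 100 nM and 0.902 and 0.986 at 10 nM. On the other arrays it lay between 0.900 and 1.08, except for the 8 pulses 100 nM A array at 1.69. The same ratio for Actb was 3.32 and 3.68 at 100 nM and 2.42 and 2.83 at 10 nM. The 100 nM values of Actb lay within the 1.80 to 4.13 of the other 18 arrays, and only the Gapdh ratio was used as a covariate. The gonadotrope markers Cga, Lhb, Nr5a1 and Pitx1 were above the signal filter of 427 on all 20 arrays and Gnrhr on 19, whereas Fshb passed it on 1 array. Markers of other cell types were mixed: Pomc (corticotropes), Tshb (thyrotropes) and Ptprc (leukocytes) were above it on 0 arrays, while Gh (somatotropes), Col1a1 (fibroblasts), Pecam1 (endothelium) and Csf1r (macrophages) were above it on all 20.

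After 4 pulses, many genes differed between the doses. The test was limma's moderated linear model on all 20 arrays, with Benjamini-Hochberg adjustment over all probe sets. Of 8491 probe sets tested, 540 passed an adjusted p of 0.05 (6.36%), 262 higher and 278 lower at 100 nM, and 1846 had an unadjusted p under 0.05 where 425 would be expected by chance. Counted once per gene, 442 of 6216 genes passed (7.11%): 205 were higher at 100 nM (3.3%) and 237 lower (3.81%). The higher genes had log2 differences from 0.51 to 2.84 with a median of 0.94, and 91 of them exceeded 1. The lower genes ranged from -1.94 to -0.48 with a median of -0.79, and 42 fell beyond -1. The median over all genes was 0.0013. Groups of 2 arrays separate easily: the signals did not overlap between doses for 3117 of 6216 genes (50.1%). Because the arrays hold bulk RNA, fewer cells with a transcript and less of it per cell cannot be told apart.

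How firmly the count stands depends on the arrays. Without the 100 nM A array 322 probe sets passed, without 100 nM D 57, without 10 nM B 142 and without 10 nM C 206. With the Gapdh ratio as a covariate 119 passed, of which 91 were higher and 28 lower. When the array medians were set equal, the split moved from 262 higher and 278 lower to 148 and 294. When the groups were taken from the annotated number of pulses in place of the titles, limma called 0 probe sets, with 296 at an unadjusted p under 0.05. Of 61 named genes past the threshold, 19 also passed it with each of the 4 arrays left out in turn, and all 19 passed with the Gapdh ratio as a covariate: Mmp12, Egr1, Klf4, Isg20, Srxn1, Cidea, Crem, Rrad, Phlda1, Bach1, Nefm, Fosl1, Btg2, Idi1, Tpm1 and B2m among the higher genes, and Nkiras2, Pde6d and Hes6 among the lower ones. For most of the others the highest adjusted p over the 4 leave-one-out fits is given where they are described. Each value given as a mean ± error below is a difference of 100 nM minus 10 nM on the log2(signal + 167) scale with the standard error from limma and n = 2 against 2, and the added constant shrinks the differences of dim genes.

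**Figure D1:**
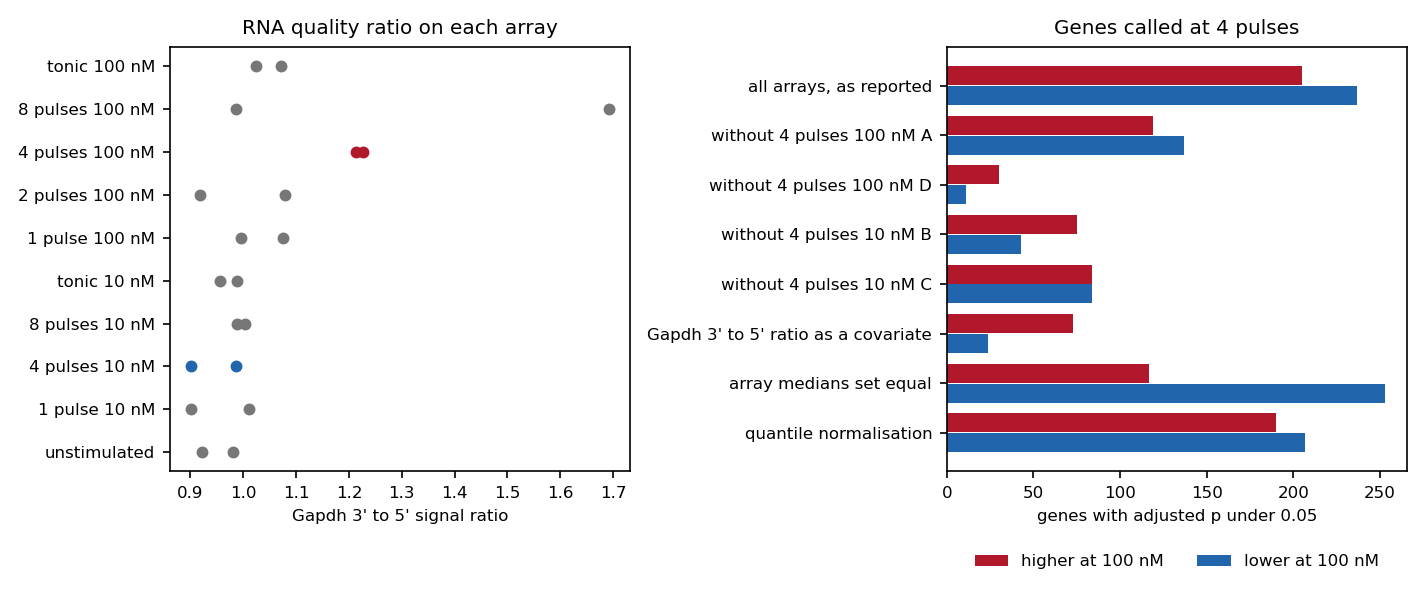
Left, the Gapdh 3' to 5' signal ratio (horizontal axis, no unit) of each of the 20 arrays by group, with 4 pulses 100 nM in red and 4 pulses 10 nM in blue. Right, the number of genes higher (red) or lower (blue) at 100 nM past an adjusted p of 0.05 for all arrays and under 7 alternatives; the 205 higher and 237 lower genes fell to 30 and 11 without the 100 nM D array and to 73 and 24 with the Gapdh ratio as a covariate.

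The gene furthest above its 10 nM level was Mmp12, which encodes the macrophage elastase, a secreted metalloprotease. Its signals were 2153 and 2759.9 at 100 nM and 237 and 159.6 at 10 nM, beside 331 and 259.5 in unstimulated cells. The log2 difference was 2.84 ± 0.33 (adjusted p = 0.000177), a ratio of 7.18 on that scale. The 10 nM and unstimulated signals all lay below the filter of 427, so the size of this difference depends on the added constant. A second Mmp12 probe set differed by 1.85 (adjusted p = 0.0108).

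Srxn1, which encodes the enzyme that repairs over-oxidised peroxiredoxins, read 30259.8 and 50949.9 at 100 nM and 9458 and 9482 at 10 nM. Both doses lay above the unstimulated 3681 and 3456, and the log2 difference between doses was 2.03 ± 0.26 (adjusted p = 0.000343). A second, dimmer Srxn1 probe set differed by 0.060 (adjusted p = 0.926).

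The remaining large rises spanned several kinds of protein. Isg20, which encodes an RNA exonuclease, had signals of 797 and 1436 at 100 nM and 109 and 154 at 10 nM. Its difference was 2.06 ± 0.28 (adjusted p = 0.000605). Cidea, a lipid droplet protein, read 1223 and 2088 at 100 nM and 203 and 457 at 10 nM and differed by 1.88 ± 0.29 (adjusted p = 0.00136). At 10 nM both genes were near the dim end of the array, below the filter of 427 except for 1 Cidea value. Phlda1, a pleckstrin homology domain protein, was even within each dose, with 5857 and 6460.2 at 100 nM and 1646 and 1616 at 10 nM. Its difference was 1.81 ± 0.30 (adjusted p = 0.00249). Bach1, a haem-binding transcriptional repressor, read 4361 and 6677 at 100 nM and 2002 and 1022 at 10 nM. Its difference was 1.79 ± 0.26 (adjusted p = 0.000839). Nefm, the medium neurofilament subunit, read 21738 and 26226 at 100 nM and 6419 and 7282 at 10 nM. Its difference was 1.78 ± 0.24 (adjusted p = 0.000584). In each of these 5 genes both 100 nM arrays lay above both 10 nM arrays and above both unstimulated arrays. Each of the 5 also passed with any 1 array left out. Sema3e, a secreted guidance cue, was less even, since its 10 nM signals were 2313 and 666 against 3967 and 6519 at 100 nM. Its difference of 1.87 ± 0.39 (adjusted p = 0.0105) missed the threshold without 100 nM D and without 10 nM C, with an adjusted p of up to 0.129.

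The largest falls ranged from dim to bright genes. Zbtb17, which encodes the MYC partner MIZ1, read 363 and 348 at 100 nM and 1772 and 1918 at 10 nM, a difference of -1.94 ± 0.41 (adjusted p = 0.0113). The unstimulated signals of 418 and 1076 lay between the doses, so the 10 nM arrays stood above the untreated level. Nkiras2, a RAS-like inhibitor of NF-κB, read 245 and 292 at 100 nM and 917 and 1128 at 10 nM. Its difference was -1.45 ± 0.26 (adjusted p = 0.00454). Cacng2, an auxiliary subunit of glutamate receptors, read 206 and 103 at 100 nM and 671 and 692 at 10 nM, with a difference of -1.42 ± 0.27 (adjusted p = 0.00692). Hnrnpl, a splicing regulator, read 3402 and 2224 at 100 nM and 9193 and 6288 at 10 nM. Its difference was -1.41 ± 0.34 (adjusted p = 0.0222). Rad1, part of the DNA damage clamp, read 1105 and 325 at 100 nM and 1867 and 2205 at 10 nM, so the 100 nM arrays were far apart, and its difference was -1.47 ± 0.39 (adjusted p = 0.0305).

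Pde6d and Hes6 fell evenly across arrays and, like Nkiras2, passed with any 1 array left out. Pde6d, a carrier of prenylated proteins, read 2118 and 1722 at 100 nM and 5549.7 and 5106 at 10 nM, against 7086 and 6942 in unstimulated cells, and differed by -1.40 ± 0.17 (adjusted p = 0.000249). Hes6, a basic helix-loop-helix factor of neural and endocrine differentiation, read 3379 and 3127 at 100 nM and 9276 and 7424 at 10 nM, against 11691 and 11464. Its difference was -1.31 ± 0.18 (adjusted p = 0.000679). In both genes the 10 nM arrays lay between the unstimulated and the 100 nM arrays. Among metabolic enzymes, Adi1 of methionine salvage differed by -1.28 ± 0.29 (adjusted p = 0.0146) and Acaa1b, a peroxisomal thiolase, by -1.25 ± 0.27 (adjusted p = 0.0116); a dimmer Acaa1b probe set gave -0.093 (adjusted p = 0.929). Without single arrays the adjusted p rose to 0.0938 for Zbtb17 (100 nM D, 10 nM B and 10 nM C each ended the call), 0.345 for Rad1 (the same 3), 0.0980 for Cacng2 (100 nM D), 0.206 for Hnrnpl and 0.167 for Adi1 (100 nM D and 10 nM B), and 0.134 for Acaa1b (100 nM D and 10 nM C). With the Gapdh ratio as a covariate, Zbtb17, Rad1, Hnrnpl, Adi1 and Acaa1b also missed the threshold, at 0.118, 0.0710, 0.220, 0.138 and 0.121, and the part of RNA quality in these falls was not tested further.

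**Figure D2:**
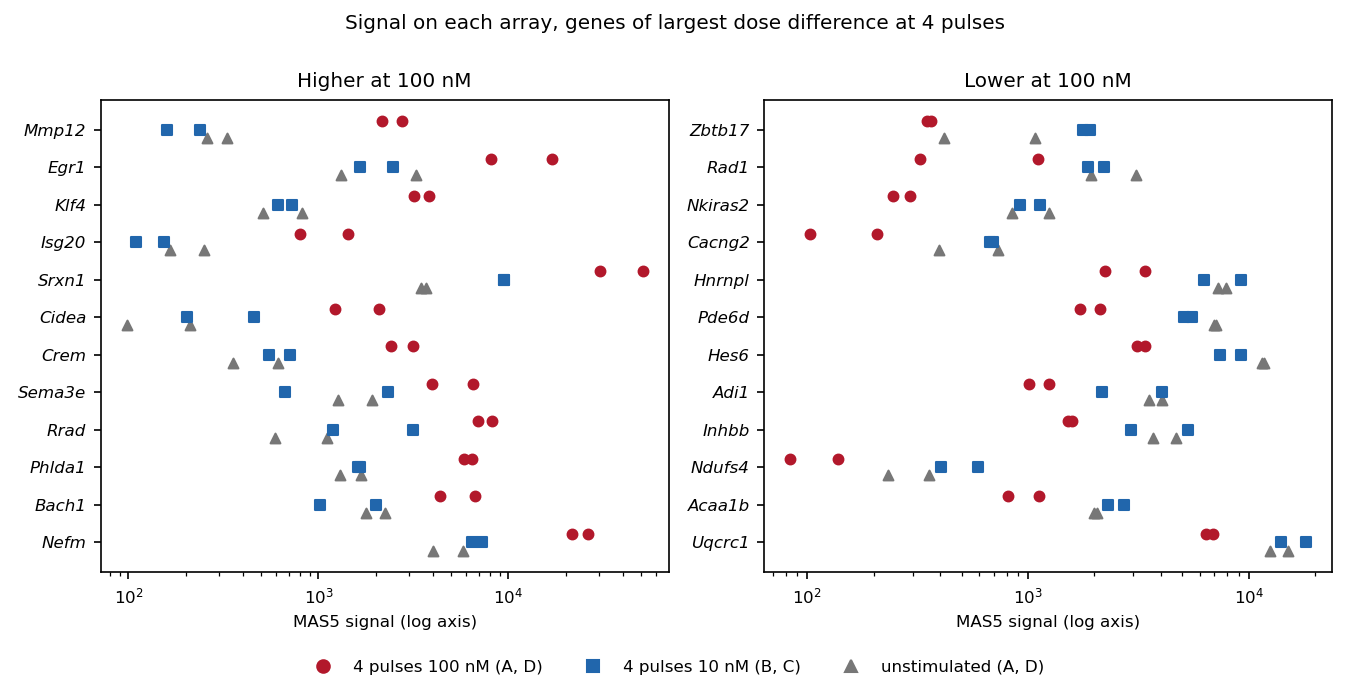
MAS5 signal (log axis, arbitrary units) on each array of 4 pulses 100 nM (red circles), 4 pulses 10 nM (blue squares) and unstimulated cells (grey triangles) for the 12 largest rises, left, and the 12 largest falls, right. For Mmp12 the 100 nM arrays read 2153 and 2759.9 and the 10 nM arrays 237 and 159.6; Hes6 read 3379 and 3127 against 9276 and 7424.

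Immediate early genes, which are transcribed within minutes of a stimulus without new protein, were on the higher side at 100 nM. Of 40 listed, 32 were on the array and 28 were tested; 13 of the 28 were higher (46.4%, against 3.3% of all genes) and 0 lower by limma, with 18 higher and 0 lower at an unadjusted p under 0.05, and the median difference was 1.03 against 0.0013 over all genes. All 28 differences were positive, and in 21 the doses did not overlap with 100 nM above (25.4% of all genes). This list and those below were chosen with earlier results of these data known. Their shares beside those of all genes are therefore descriptions, and no set test was made. The higher members were Egr1, Klf4, Crem, Fos, Atf3, Btg2, Fosl1, Klf6, Junb, Jun, Ier2, Zfp36 and Ier3. Without 100 nM A, 100 nM D, 10 nM B or 10 nM C the count was 6, 8, 8 or 7, and it was 12 with the Gapdh ratio as a covariate.

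Egr1, the zinc-finger factor that links GnRH to the luteinizing hormone beta gene, had signals of 17046 and 8121 at 100 nM and 2469.8 and 1664 at 10 nM, beside 1311 and 3258 in unstimulated cells. The 10 nM arrays lay within the unstimulated range, while both 100 nM arrays lay above it and were themselves far apart. The difference was 2.44 ± 0.38 (adjusted p = 0.00157), a ratio of 5.44. A second Egr1 probe set of low signal differed by 0.12 (adjusted p = 0.907). Egr2, its paralogue, read 6974 and 5076 at 100 nM and 2687 and 2825 at 10 nM with 525 and 1563 unstimulated, and its difference of 1.07 ± 0.36 (adjusted p = 0.0914) did not pass. NAB1 and NAB2 are corepressors that bind both proteins. Nab1 read 11894 and 10577 at 100 nM and 5398 and 8395 at 10 nM with 3261 and 3285 unstimulated and differed by 0.72 ± 0.22 (adjusted p = 0.0585), and Nab2 read 5384 and 3849.8 at 100 nM and 2464 and 3169 at 10 nM with 956 and 1329 and differed by 0.67 ± 0.20 (adjusted p = 0.0538). Neither passed the threshold between doses. In Nab1, Nab2 and Egr2, unlike Egr1, both 10 nM arrays stood above both unstimulated ones, which carry other code letters.

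The AP-1 subunits differed among themselves. Fosl1, a FOS family member that accumulates after lasting stimulation, read 1323 and 1993 at 100 nM and 403 and 490.0 at 10 nM with 289 and 269 unstimulated. Its difference was 1.55 ± 0.23 (adjusted p = 0.00116). Fos itself read 12936 and 16311 at 100 nM and 6073 and 3121 at 10 nM, and its unstimulated arrays, at 3978 and 9824, lay above the 10 nM array of lowest signal and below both 100 nM arrays; the difference was 1.70 ± 0.46 (adjusted p = 0.0339), with 0.31 (adjusted p = 0.665) in a dimmer probe set. Junb read 6028 and 3811 at 100 nM and 1786 and 1467 at 10 nM. Its difference was 1.47 ± 0.28 (adjusted p = 0.00622), with 2.75 (adjusted p = 0.00639) in a second probe set. Jun read 4270.1 and 2860.0 at 100 nM and 1359 and 1027 at 10 nM. Its difference was 1.44 ± 0.37 (adjusted p = 0.0283). Atf3, a stress-induced partner of the JUN proteins, read 23723 and 34298 at 100 nM and 9864 and 7677 at 10 nM. The difference was 1.69 ± 0.49 (adjusted p = 0.0468), with 1.59 (adjusted p = 0.0313) in a second probe set. The calls discussed below are those of the first probe set of each gene. Fosb, at 0.65 ± 0.24 (adjusted p = 0.123), and Jund, at 0.073 ± 0.20 (adjusted p = 0.874), did not pass. The calls of Fos, Jun and Atf3 were each lost without any 1 of the 4 arrays (adjusted p up to 0.232, 0.172 and 0.264), and that of Junb without 100 nM A and without 10 nM C (up to 0.0592).

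Among the other immediate early factors, Klf4, Crem and Btg2 passed with any 1 array left out. Klf4, a Krüppel-like factor, read 3812 and 3181 at 100 nM and 728 and 612 at 10 nM with 509 and 815 unstimulated. Its difference was 2.13 ± 0.23 (adjusted p = 9.83e-05). Crem, which encodes activators and the inducible repressor ICER of the cAMP response element, read 2399 and 3139.9 at 100 nM and 547 and 708 at 10 nM with 353 and 612 unstimulated. Its difference was 1.88 ± 0.25 (adjusted p = 0.000408). A second Crem probe set differed by 1.81 (adjusted p = 0.00505). Which Crem isoforms these probe sets read was not examined. Btg2, an antiproliferative gene, was bright in all samples, with 28068 and 18057 at 100 nM and 6654 and 7150.3 at 10 nM and 5941 and 9099.9 unstimulated. Its difference was 1.68 ± 0.21 (adjusted p = 0.000312). Klf6, another Krüppel-like factor, differed by 1.50 ± 0.29 (adjusted p = 0.00708) and Zfp36, which destabilises AU-rich messages, by 1.13 ± 0.22 (adjusted p = 0.00622). Ier2 differed by 1.15 ± 0.24 (adjusted p = 0.0114) and Ier3 by 0.93 ± 0.23 (adjusted p = 0.0237); Ier2 missed the threshold without 100 nM A and without 10 nM C (adjusted p up to 0.118) and Ier3 without any 1 of the 4 arrays (up to 0.141). Nr4a1, an orphan nuclear receptor, read 36153 and 23574 at 100 nM and 10252 and 10664 at 10 nM with unstimulated signals of 2053 and 10938, and its difference of 1.47 ± 0.54 (adjusted p = 0.116) did not pass.

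Feedback regulators of the same pathway were also on the higher side at 100 nM. Of 25 listed, 18 were on the array and 15 were tested; 5 of the 15 were higher (33.3%, against 3.3% of all genes) and 0 lower by limma, with 11 higher and 0 lower at an unadjusted p under 0.05, the median was 0.67, and all 15 differences were positive. Rgs2, which inactivates Gq, read 18554 and 21227 at 100 nM and 5593 and 6366 at 10 nM with 1781 and 3148 unstimulated, so the 3 groups did not overlap, and the doses differed by 1.71 ± 0.30 (adjusted p = 0.00407). Rrad, a small GTPase that inhibits voltage-gated calcium channels, read 8239.8 and 6938 at 100 nM and 1187 and 3146 at 10 nM with 594 and 1109 unstimulated. Its difference was 1.87 ± 0.32 (adjusted p = 0.00314). Dusp1, a phosphatase of MAP kinases, read 8410.4 and 10822 at 100 nM and 3482 and 3070.3 at 10 nM with 3441 and 6090.1 unstimulated; the 10 nM arrays lay within or below the unstimulated range, and the difference was 1.50 ± 0.27 (adjusted p = 0.00454). Tob1, a relative of Btg2, differed by 0.91 ± 0.17 (adjusted p = 0.00503) and Errfi1, an inhibitor of epidermal growth factor receptors, by 0.67 ± 0.19 (adjusted p = 0.0441). Gem, a GTPase related to Rrad, read 3575 and 2024 at 100 nM and 2177 and 1234 at 10 nM and did not pass (0.66 ± 0.35, adjusted p = 0.291). Dusp6 signals of 292 and 163 at 100 nM and 57.3 and 183 at 10 nM were below the filter, so it was not tested. Without 100 nM D 1 member passed, with the adjusted p at 0.0620 for Rgs2, 0.0834 for Dusp1 and up to 0.0749 for Tob1; 4 passed without each of the other 3 arrays and 3 with the Gapdh ratio as a covariate.

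Promoter sequence is shown for examples of higher genes that carry a binding motif of a GnRH-responsive factor in RefSeq's promoter windows. These windows run from 250 bases before to 50 after the start (build GRCm38.p6). Motifs were searched on both strands: the cAMP response element (CRE) TGACGTCA, the AP-1 site TGANTCA, the EGR site GCGNGGGCG and the CArG box of serum response factor. The CRE and AP-1 patterns do not contain each other. Other higher genes with a motif are not shown, among them Errfi1 (CRE), Zfp36 (CArG box and EGR site), Klf4 and Rgs2 (EGR site). The capitals mark every match of the 4 motifs in the stretch: a CRE in Btg2 and Dusp1, 2 CREs in Dusp8, a CArG box in Vcl and Cnn2, and an EGR site in Btg2 and Cnn2.
Btg2 (chr1:134079269-134079366, minus strand): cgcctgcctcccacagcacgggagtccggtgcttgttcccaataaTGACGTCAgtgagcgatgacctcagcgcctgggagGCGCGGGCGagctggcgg
Dusp1 (chr17:26508563-26508660, minus strand): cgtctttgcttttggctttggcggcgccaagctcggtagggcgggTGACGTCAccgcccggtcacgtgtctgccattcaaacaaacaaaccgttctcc
Dusp8 (chr7:142095295-142095436, minus strand): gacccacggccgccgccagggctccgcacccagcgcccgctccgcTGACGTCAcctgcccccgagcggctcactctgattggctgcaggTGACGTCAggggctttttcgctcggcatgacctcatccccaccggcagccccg
Vcl (chr14:20929148-20929225, plus strand): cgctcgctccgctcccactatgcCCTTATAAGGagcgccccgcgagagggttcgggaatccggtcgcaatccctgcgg
Cnn2 (chr10:79988499-79988598, plus strand): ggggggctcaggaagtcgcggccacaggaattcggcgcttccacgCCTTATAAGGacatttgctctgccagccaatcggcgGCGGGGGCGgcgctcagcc
Dusp8, another MAP kinase phosphatase that is in no list, was chosen after its values were seen, because its window holds 2 CREs. It read 4368 and 4927 at 100 nM and 1762 and 1452 at 10 nM with 1623 and 2463 unstimulated, and was higher by 1.44 ± 0.24 (adjusted p = 0.00256), with 0.0425 as the highest adjusted p when 1 array was left out. Vcl and Cnn2 belong to the actin cytoskeleton list.

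The CRE was found in the window of 7.05% of the higher genes with one (11 of 156), 1.97% of the lower genes (4 of 203), 3.49% of all tested genes (175 of 5009) and 2.03% of all genes of the RefSeq table (549 of 27025). The AP-1 site was in 7.05%, 4.43%, 6.65% and 8.97% of the same sets, and the EGR site in 16.0%, 11.8%, 12.6% and 6.27%. The CArG box was in 3.85% of the higher genes (6 of 156), in 0 of 203 lower genes, and in 1.76% of the tested genes. These are descriptions of the windows: a match is not a bound site, and no test was made on the shares.

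Gonadotrope genes showed no common shift with the dose. Of 22 listed, 16 were tested; limma called 0 as higher and 2 as lower (12.5% called, against 7.11% of all genes), with 2 higher and 2 lower at an unadjusted p under 0.05 and a median of -0.039 (-0.23 without 100 nM A and 0.059 without 100 nM D). The common gonadotropin subunit Cga read 110635 and 137496 at 100 nM and 98981 and 106314 at 10 nM. Its difference was 0.27 ± 0.20 (adjusted p = 0.469). Lhb, the luteinizing hormone beta subunit, read 3632 and 2710.3 at 100 nM and 3346 and 4285 at 10 nM, so the doses overlapped, and differed by -0.26 ± 0.19 (adjusted p = 0.479), with a 95% interval from -0.66 to 0.15. Gnrhr, the GnRH receptor, read 819 and 1082 at 100 nM and 787 and 824 at 10 nM and differed by 0.19 ± 0.26 (adjusted p = 0.732), with an interval from -0.35 to 0.74. Fshb was below the filter at 351 and 243 at 100 nM and 369 and 309.9 at 10 nM and was not tested. 

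The 2 lower members are both regulators. Inhbb, the beta B subunit of activin and inhibin, read 1513 and 1590.2 at 100 nM and 5295 and 2937 at 10 nM with 3669.7 and 4667 unstimulated. Its difference was -1.26 ± 0.29 (adjusted p = 0.0169). The 100 nM arrays were close together, while the 10 nM arrays spanned the unstimulated pair. Inhba, the beta A subunit, read 280.2 and 498 at 100 nM and 351 and 413 at 10 nM, below or just above the filter, with a difference of -0.0068 ± 0.30 (adjusted p = 0.994). Nr0b1 (DAX1), a nuclear receptor that restrains steroidogenic factor 1 and EGR1 activity, read 27732 and 21887 at 100 nM and 37509 and 39002 at 10 nM with 22923 and 23583 unstimulated. Its difference was -0.63 ± 0.14 (adjusted p = 0.0165). Here the 10 nM arrays stood above the unstimulated ones and one 100 nM array below them. Both calls were lost without 100 nM D and without 10 nM B, that of Inhbb also without 100 nM A and that of Nr0b1 also without 10 nM C (adjusted p up to 0.181 and 0.187), and with the Gapdh ratio as a covariate (0.173 and 0.107).

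Components of GnRH receptor signalling, from G proteins to MAP kinases, gave no call. Of 40 listed, 24 were tested and limma called 0, against 7.11% of all genes, and 0 of 24 is not far from that share. At an unadjusted p under 0.05, 6 were higher and 0 lower, beside 1846 of 8491 probe sets in either direction. The median of the list was 0.22. The largest differences were Camk2b at 0.83 ± 0.31 (adjusted p = 0.127) and Ptk2b, the calcium-regulated kinase PYK2, at 0.76 ± 0.32 (adjusted p = 0.171). Mapk8 was at 0.25 ± 0.18 (adjusted p = 0.458), Map2k1 at 0.30 ± 0.19 (adjusted p = 0.396) and Gnaq at 0.30 ± 0.24 (adjusted p = 0.505). Among 19 tested genes of the secretory granule and exocytosis, 2 were higher and 1 lower (15.8% called, against 7.11% of all genes). Syt4, a synaptotagmin of dense-core vesicles, read 28374 and 45602 at 100 nM and 13880.4 and 16114 at 10 nM with 11327 and 11234 unstimulated. Its difference was 1.26 ± 0.20 (adjusted p = 0.00239). Snap25, a membrane fusion SNARE, differed by 0.84 ± 0.22 (adjusted p = 0.0337), and Rab3b, a vesicle GTPase, by -0.83 ± 0.22 (adjusted p = 0.0312). The granule proteins Chga at -0.093 ± 0.22 (adjusted p = 0.858), Chgb at 0.47 ± 0.17 (adjusted p = 0.108) and Scg2 at 0.45 ± 0.17 (adjusted p = 0.126) did not pass. Syt4 missed the threshold without 100 nM D (0.0620), Snap25 without 100 nM D and without 10 nM B (up to 0.254) and Rab3b without any 1 of the 4 arrays (up to 0.149), and Snap25 and Rab3b also with the Gapdh ratio as a covariate (0.248 and 0.280).

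Cell cycle genes were mostly on the lower side, with 10 of 30 differences positive. Of the 30 tested, 8 were lower and 1 higher (30.0% called, against 7.11% of all genes), with a median of -0.23 (-0.096 without 10 nM B and -0.097 without 100 nM D). The lower members were Cdkn2c, Cdc45, Cdk4, Ccne1, Plk1, Ccnb2, Rrm1 and Mcm7. Cdkn2c, an inhibitor of the cyclin D kinases, read 4987 and 4921 at 100 nM and 10311 and 9894 at 10 nM with 11849.9 and 10618 unstimulated, a ratio of 0.499 between the doses (adjusted p = 0.00756). Cdk4, one of those kinases, read 8839 and 9107 at 100 nM and 15166 and 15955 at 10 nM and differed by -0.78 ± 0.15 (adjusted p = 0.00756), and Cdc45, a replication helicase factor, differed by -0.92 ± 0.23 (adjusted p = 0.0245). Plk1 and Ccnb2, which act in mitosis, differed by -0.70 ± 0.19 (adjusted p = 0.0341) and -0.70 ± 0.15 (adjusted p = 0.0108). The member that rose was Cdkn1a, the p53 target and cell cycle inhibitor, at 30522 and 38591 at 100 nM and 13340.5 and 16123 at 10 nM with 9025 and 8130.5 unstimulated. Its difference was 1.22 ± 0.33 (adjusted p = 0.0347) and 2.17 (adjusted p = 9.04e-05) in a second probe set. That first call was lost without any 1 of the 4 arrays (adjusted p up to 0.227). Cdkn2c missed the threshold without 100 nM D or 10 nM B (up to 0.0829), Cdk4 without 100 nM D (0.0714), with -0.93 (adjusted p = 0.149) in a second Cdk4 probe set, and Cdc45 without 100 nM D, 10 nM B or 10 nM C (up to 0.208). The list holds both drivers and inhibitors of division, so its count says nothing on the rate of division. The count of lower members was 0 without 100 nM D, 2 without 10 nM B, 2 without 10 nM C and 5 without 100 nM A. It was also 0 with the Gapdh ratio as a covariate, which moved with the dose, and what part RNA quality has in these falls was not tested further.

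Genes of the actin cytoskeleton, many of them targets of serum response factor, gave 5 higher and 0 lower members of 22 tested by limma (22.7%, against 3.3% of all genes higher), 10 higher and 2 lower at an unadjusted p under 0.05, with a median of 0.37 (0.23 without 10 nM C) and 14 positive differences. Tpm1, a tropomyosin that stabilises actin filaments, read 20082 and 19889.7 at 100 nM and 6518 and 10498 at 10 nM with 5494 and 5618 unstimulated. Its difference was 1.26 ± 0.18 (adjusted p = 0.000974). Tpm4 read 37961 and 40466 at 100 nM and 20531 and 23766 at 10 nM and differed by 0.82 ± 0.15 (adjusted p = 0.00415). Vcl, which anchors actin at adhesions, differed by 0.67 ± 0.15 (adjusted p = 0.0129), with 0.24 (adjusted p = 0.739) in a dimmer probe set, Cnn2, a calponin, by 0.93 ± 0.26 (adjusted p = 0.0409), and Actn1, an actin crosslinker, by 0.67 ± 0.18 (adjusted p = 0.0341). Tpm4 missed the threshold without 100 nM D (0.0615), Vcl without 100 nM D or 10 nM C (up to 0.112) and Cnn2 without any 1 of the 4 arrays (up to 0.231). In each of Tpm1 and Tpm4 the 10 nM arrays lay between the unstimulated and the 100 nM arrays. The actins themselves did not pass: Actb gave -0.61 ± 0.40 (adjusted p = 0.398) and Actg1 0.16 ± 0.22 (adjusted p = 0.735). Without 100 nM D 1 member passed, without 10 nM C 2, without 100 nM A 4 and without 10 nM B 5, and 2 passed with the Gapdh ratio as a covariate. When array medians were set equal the median was 0.29 with 3 higher members.

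**Figure D3:**
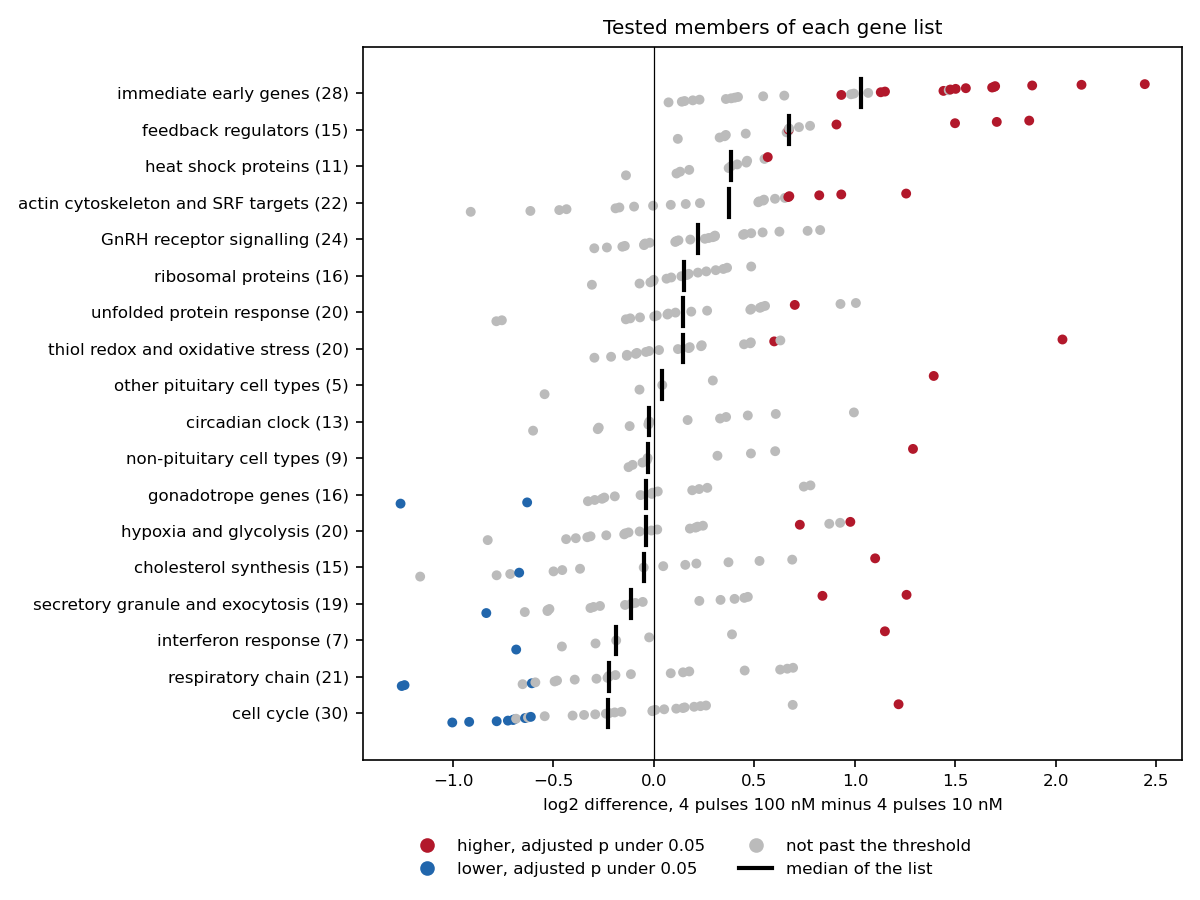
Difference between 4 pulses 100 nM and 4 pulses 10 nM (log2, horizontal axis) of each tested gene in 18 lists, with the number tested in brackets, sorted by median (black bar). Red points passed as higher, blue as lower, grey did not pass; all 28 immediate early genes and all 15 feedback regulators lie to the right of 0, with medians of 1.03 and 0.67.

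Stress lists were called at shares near that of all genes: 5.00% of the unfolded protein response, 10.0% of thiol redox, 9.09% of heat shock and 10.0% of hypoxia and glycolysis genes, against 7.11%. Of 20 tested unfolded protein response genes 1 was higher: Hspa5, the main chaperone of the endoplasmic reticulum, read 66314 and 75639 at 100 nM and 41319 and 45817 at 10 nM and differed by 0.70 ± 0.17 (adjusted p = 0.0246). Of 20 thiol redox genes, Srxn1 was higher, as was Gclc, the catalytic subunit of the limiting enzyme of glutathione synthesis, at 0.60 ± 0.15 (adjusted p = 0.0273). Of 11 heat shock proteins, the mitochondrial Hspa9 was higher at 0.57 ± 0.15 (adjusted p = 0.0273), and 10 of the 11 differences were positive. Of 20 hypoxia and glycolysis genes, Vegfa, the endothelial growth factor, at 0.98 ± 0.28 (adjusted p = 0.0479), and Ndrg1 at 0.73 ± 0.18 (adjusted p = 0.0247) were higher, while the glucose transporter Slc2a1 read 4346 and 9166 at 100 nM and 4275 and 2663 at 10 nM and differed by 0.87 ± 0.52 (adjusted p = 0.350). Hspa5 missed the threshold without 100 nM D, 10 nM B or 10 nM C and Gclc, Hspa9, Vegfa and Ndrg1 without any 1 of the 4 arrays, with an adjusted p of up to 0.177, 0.139, 0.174, 0.230 and 0.166 in that order, and all 5 did so with the Gapdh ratio as a covariate (0.183, 0.124, 0.188, 0.126 and 0.0986).

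By limma the respiratory chain list gave 3 lower and 0 higher members of 21 tested (14.3%, against 3.81% of all genes lower), with 7 lower and 4 higher at an unadjusted p under 0.05 and a median of -0.23. One array moved that median, to -0.018 without 100 nM A, -0.089 without 10 nM C, -0.38 without 10 nM B and -0.44 without 100 nM D. Uqcrc1, a core subunit of complex III, read 6914 and 6411 at 100 nM and 18224 and 13988 at 10 nM with 12485 and 15103 unstimulated. Its difference was -1.24 ± 0.26 (adjusted p = 0.0106). Ndufs4 and Ndufs1, both of complex I, differed by -1.26 ± 0.27 (adjusted p = 0.0122) and -0.61 ± 0.16 (adjusted p = 0.0363). Ndufs4 was dim at 100 nM, with signals of 138 and 83.6. Without 100 nM D 0 members passed, and the adjusted p rose to 0.0965, 0.123 and 0.262; without 10 nM B 1 passed, without 10 nM C 2 and with the Gapdh ratio as a covariate 1. Of 15 cholesterol synthesis genes 2 passed by limma (13.3%, against 7.11% of all genes). Idi1, an isomerase of the isoprenoid pathway, read 15198 and 17174 at 100 nM and 6995 and 7921 at 10 nM with 5679 and 6803 unstimulated. It rose by 1.10 ± 0.18 (adjusted p = 0.00239). Ebp, a sterol isomerase, fell by 0.67 on the log2 scale (adjusted p = 0.0354) and missed the threshold without any 1 of the 4 arrays. Ribosomal protein genes (16 tested) and clock genes (13 tested) gave 0 calls by limma, against 7.11% of all genes. At an unadjusted p under 0.05 they had 0 and 2 members, and their medians were 0.15 and -0.023. With 1 array left out the ribosomal median ranged from -0.054 (100 nM D) to 0.31 (100 nM A). The clock median ranged from -0.015 (10 nM C) to 0.24 (10 nM B).

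Of 7 interferon response genes tested 2 passed by limma (28.6%, against 7.11% of all genes). B2m, the light chain of class I molecules, read 31446 and 34118 at 100 nM and 12369 and 17406 at 10 nM with 13114 and 13715 unstimulated. It was higher by 1.15 ± 0.17 (adjusted p = 0.000828). Psmb9, an immunoproteasome subunit, was lower at -0.69 ± 0.17 (adjusted p = 0.0236), a call lost without 100 nM A, 100 nM D or 10 nM C (adjusted p up to 0.211) and with the Gapdh ratio as a covariate (0.0840). Among 14 tested markers of other pituitary or non-pituitary cell types, 2 passed, against 7.11% of all genes. Crhr1, the corticotropin-releasing hormone receptor of corticotropes, read 899.9 and 1327 at 100 nM and 438 and 215 at 10 nM (1.39 ± 0.38, adjusted p = 0.0370) and Cd68, a lysosomal protein of macrophages, read 993 and 1556 at 100 nM and 352 and 479 at 10 nM (1.29 ± 0.31, adjusted p = 0.0220). Both calls were lost without 100 nM D, 10 nM B or 10 nM C, that of Crhr1 also without 100 nM A (adjusted p up to 0.208 for Cd68 and 0.25 for Crhr1), and with the Gapdh ratio as a covariate (0.0940 and 0.117). The summed signal of the 8 other-pituitary markers on the array was 6683 to 7005 at 100 nM and 6089 to 7079 at 10 nM, and that of 14 non-pituitary markers 14695 to 16677 and 13090 to 16722. Of the other-pituitary markers, Pomc, Tshb and S100b were above the filter on 0 of the 20 arrays, Gh (2141 to 3134), Ghrhr (450 to 927) and Drd2 (1212 to 2799) on all 20, Crhr1 on 15 and Prl on 4. Of the non-pituitary markers, Col3a1, Kdr, Ptprc, Aif1 and Lyz2 were above it on 0 arrays, Col1a1, Col1a2, Pecam1, Cdh5, Csf1r, Cd14 and Hba-a1 on all 20, Cd68 on 17 and Gfap on 9. Their part in the differences between doses was not tested.

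Against unstimulated cells the doses stood far apart in the number of probe sets past the threshold. The 2 comparisons share their control arrays, so they are given side by side. At 100 nM, 1268 of 8491 probe sets passed (14.9%), 528 higher and 740 lower, or 986 of 6216 genes (15.9%), 388 higher (6.24%) and 598 lower (9.62%). At 10 nM, 5 probe sets passed (0.0589%), all higher, or 4 genes (0.0644%). At an unadjusted p under 0.05 the counts by limma were 2461 at 100 nM and 1109 at 10 nM. The 100 nM count was 203 without 100 nM D, 451 without unstimulated D and 708 without unstimulated A. The 10 nM count was 26 without 10 nM B, and 0 without 10 nM C (508 at an unadjusted p under 0.05) and without unstimulated D (828). At 10 nM dose and letter go together here too, while at 100 nM the letters A and D are shared with the controls. RNA quality differed as well, with Gapdh ratios of 1.21 and 1.23 at 100 nM and 0.980 and 0.922 in unstimulated cells. With that ratio as a covariate the 100 nM count was lower. With the code letter added to it the counts at the 2 doses were closer together. These counts are given in the closing section.

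The genes of the GnRH response show the same contrast. Of all genes, 6.24% were higher and 9.62% lower at 100 nM than in unstimulated cells. At 10 nM 0.0644% passed, so few calls could fall in any list. Among 28 immediate early genes 15 were higher at 100 nM than in unstimulated cells and 0 at 10 nM by limma (3 higher and 1 lower at an unadjusted p under 0.05), with medians of 0.96 and 0.050. Among 15 feedback regulators the counts were 10 and 1, with medians of 0.72 and 0.14, and among 22 actin genes 12 and 1, with medians of 0.71 and 0.33. Among 30 cell cycle genes 11 were lower and 2 higher at 100 nM, the latter near the share of all genes. At 10 nM limma called 0 of either (3 lower and 2 higher at an unadjusted p under 0.05). Leaving out single arrays gave 9 to 15 higher immediate early genes, 4 to 8 feedback regulators, 6 to 10 actin genes and 2 to 10 lower cell cycle genes at 100 nM, the lowest counts without 100 nM D for the last 3 lists and without unstimulated A for the first. At 10 nM the feedback count was 3 without 10 nM B and 0 without any 1 of the other 3 arrays, and the actin count was 2 without 10 nM B and 0 without 10 nM C or unstimulated D. Egr1 was at 2.41 ± 0.38 above unstimulated cells at 100 nM (adjusted p = 0.000578) and at -0.034 ± 0.38 at 10 nM (adjusted p = 0.984). Nab2, in contrast, passed at both doses, with 1.87 ± 0.20 (adjusted p = 1.46e-05) and 1.19 ± 0.20 (adjusted p = 0.0267); the 10 nM call was lost without 10 nM C, unstimulated A or unstimulated D (adjusted p of 0.630, 0.182 and 0.109). Srxn1 was at 3.40 ± 0.26 (adjusted p = 9.38e-07) and 1.37 ± 0.26 (adjusted p = 0.0633), and Rgs2 at 2.98 ± 0.30 (adjusted p = 8.41e-06) and 1.27 ± 0.30 (adjusted p = 0.124). Cga was higher than in unstimulated cells at 100 nM, by 0.69 ± 0.20 (adjusted p = 0.0239), a call lost without 100 nM D, unstimulated A or unstimulated D (0.235, 0.118 and 0.0784), and at 10 nM gave 0.43 ± 0.20 (adjusted p = 0.354).

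**Figure D4:**
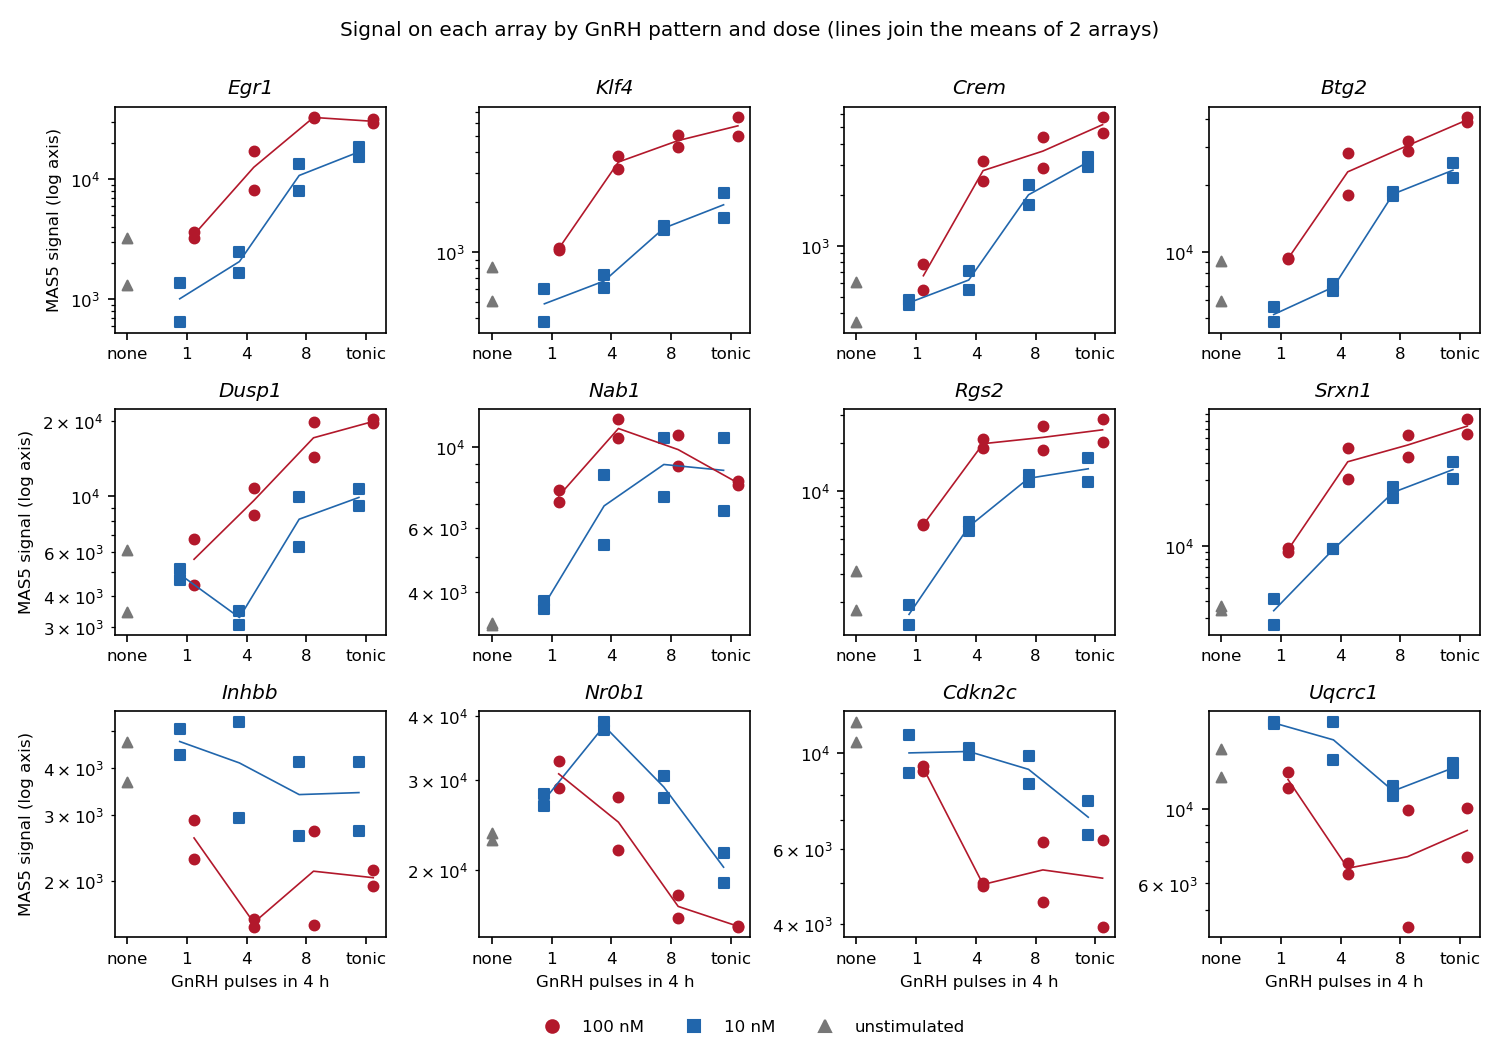
MAS5 signal (log axis, arbitrary units) of 12 genes on each array without GnRH (grey) and after 1, 4 or 8 pulses or tonic GnRH over 4 h at 100 nM (red) or 10 nM (blue); lines join the means of 2 arrays, and the 2-pulse arrays, made at 100 nM only, are left out. At 4 pulses Klf4 read 3812 and 3181 at 100 nM and 728 and 612 at 10 nM, the latter within the unstimulated range.

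Whether 4 pulses stand apart from the other patterns was asked through the difference of the dose differences, in which each dose brings the same letters to both patterns. The number of probe sets called for the dose was 14 at 1 pulse (0.165%), 540 at 4 pulses, 60 at 8 pulses (0.707%) and 68 with tonic GnRH (0.801%). Yet the dose difference at 4 pulses did not differ past the threshold from that at any other pattern: limma called 0 probe sets against 1 pulse (291 at an unadjusted p under 0.05, smallest adjusted p 0.679), 0 against 8 pulses (243, smallest 1.00) and 0 against tonic GnRH (438, smallest 0.185). The standard error of such a difference was 0.32 at the median probe set, against 0.23 for a dose difference. A larger count at 4 pulses is therefore not shown to be a larger difference in any 1 gene. RNA quality was also uneven between the patterns. The Gapdh ratio was 1.21 and 1.23 on the 4 pulses 100 nM arrays and 1.69 on the 8 pulses 100 nM A array. With that ratio as a covariate 119 probe sets passed at 4 pulses, and the counts at the other patterns were not taken with it.

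The genes called at 4 pulses mostly had the same direction at the other patterns, which share no array with them but share the letters, so dose and letter cannot be told apart there either. Of the 205 higher genes, 194 were above 0 at 1 pulse (94.6%, against 49.0% of all genes), 200 at 8 pulses (97.6% against 46.5%) and 189 with tonic GnRH (92.2% against 46.4%). Their median differences were 0.43, 0.64 and 0.49, against 0.94 at 4 pulses, where they were chosen. Of the 237 lower genes, 231, 232 and 227 were below 0 (97.5%, 97.9% and 95.8%, against 51.0%, 53.5% and 53.6% of all genes), with medians of -0.37, -0.46 and -0.41. Of the genes called as higher at the other patterns, 8 of 10 at 1 pulse (80.0%), 29 of 39 at 8 pulses (74.4%) and 19 of 33 with tonic GnRH (57.6%) were among the 205, or 3.90%, 14.1% and 9.27% of them. Over all genes, 0.161%, 0.627% and 0.531% were called as higher there. Of those called as lower at 1 pulse, 8 pulses and tonic (0.0322%, 0.177% and 0.338% of all genes), 1 of 2, 7 of 11 and 9 of 21 were among the 237.

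The values of 4 genes over the patterns are given as descriptions. At 1 pulse Egr1 read 3265 and 3658 at 100 nM and 1380.0 and 644 at 10 nM. At 8 pulses it read 32582 and 32809 against 13497 and 8017, and with tonic GnRH 31536 and 29165 against 18457 and 15325. The dose differences were 1.69, 2.44, 1.64 and 0.84 at 1, 4 and 8 pulses and tonic, each with a standard error of 0.38, and past the threshold at 4 pulses only (adjusted p = 0.0856, 0.0507 and 0.321 at 1 and 8 pulses and tonic), which is no test of a difference between patterns. The 10 nM signal at 4 pulses was thus still near the unstimulated level, and at 8 pulses and tonic it lay above it. Crem gave dose differences of 0.39, 1.88, 0.79 and 0.69. The 4-pulse difference exceeded the tonic one by 1.19 ± 0.35 (adjusted p = 0.689), which did not pass. Klf4 gave differences of 0.91, 2.13, 1.64 and 1.51, the last 2 past the threshold (adjusted p = 0.00199 and 0.00462). Mmp12 was far brighter at 8 pulses and with tonic GnRH, which were given over the same 4 h. After 8 pulses it read 12747 and 17866 at 100 nM and 3489 and 2424 at 10 nM. With tonic GnRH it read 25170.2 and 22659 against 6464 and 4605. Its dose differences were 1.02, 2.84, 2.31 and 2.10, and the doses differed at each of the latter 3 patterns (adjusted p = 0.00223 at 8 pulses and 0.00462 tonic). At 4 pulses the 10 nM arrays, like the unstimulated ones, were below the filter of 427, so their order is not read. At 8 pulses and tonic the 10 nM arrays stood above the unstimulated ones.

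Among the 3 genes of smallest p in each of these tests, Cacng2 came up both against 1 pulse and against tonic GnRH. Its dose difference at 4 pulses was below that at 1 pulse by 1.87 and below that with tonic GnRH by 1.93, with a standard error of 0.39 (adjusted p = 0.679 and 0.199). Its signals at 1 pulse were 897 and 865 at 100 nM and 560.1 and 642 at 10 nM, so the order of the doses was turned there. Serpinb2, an inhibitor of plasminogen activators, read 441 and 978 at 100 nM and 40.4 and 201 at 10 nM at 4 pulses and 62.1 and 64.4 at 100 nM and 197 and 219 at 10 nM after 1 pulse, a difference of differences of 2.30 ± 0.49 (adjusted p = 0.679). Of those 8 signals 6 lie below the filter of 427. Bach1 gave 1.64 ± 0.37 against 1 pulse (adjusted p = 0.679). Against 8 pulses Zbtb17 gave -2.36 ± 0.58, Txnrd3 1.19 ± 0.31 and Cyp4f13 -1.35 ± 0.36, all with an adjusted p of 1.00. Against tonic GnRH, Hey1, a Notch target, gave -2.02 ± 0.36 (adjusted p = 0.185) and Pex5, the peroxisomal import receptor, 1.27 ± 0.28 (adjusted p = 0.287). None of these 8 genes passed the threshold in these tests.

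**Figure D5:**
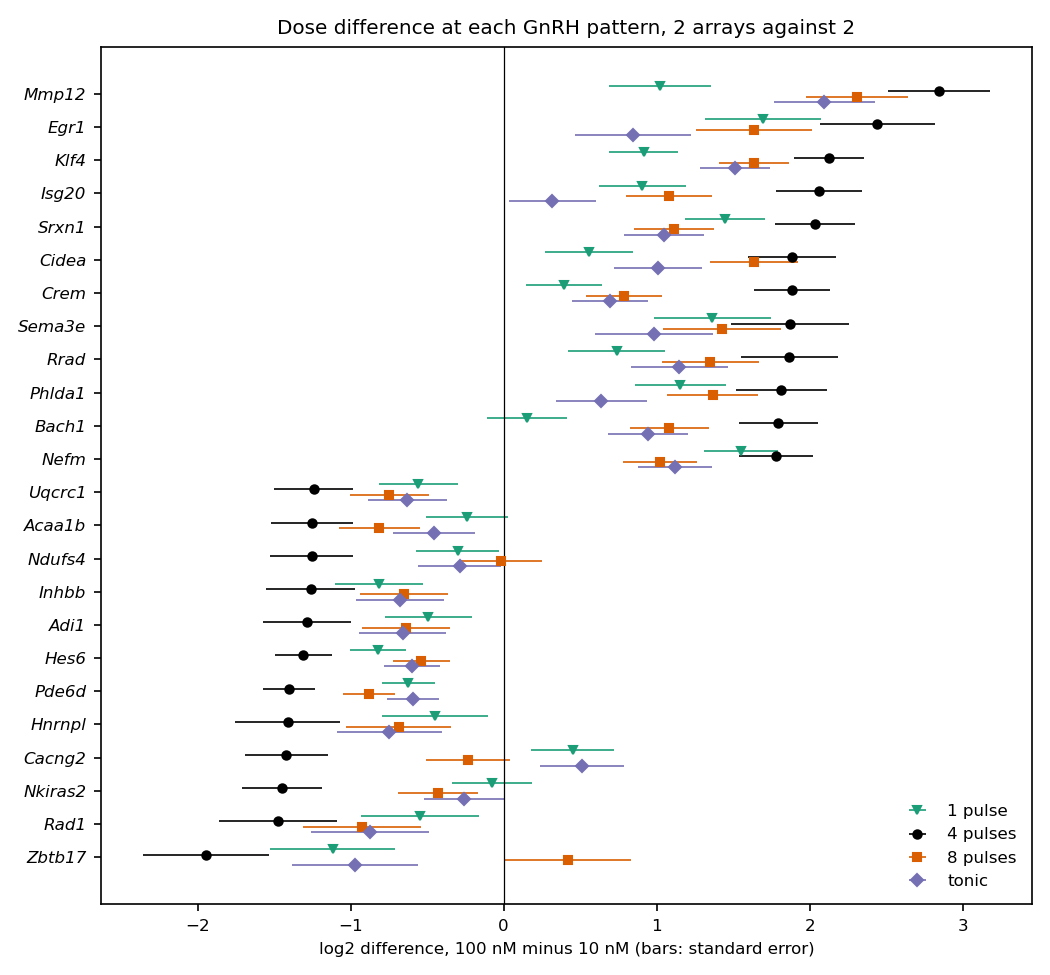
Dose difference (100 nM minus 10 nM, log2, horizontal axis) with its standard error at 1 pulse (green), 4 pulses (black), 8 pulses (orange) and tonic GnRH (violet) for the 12 largest rises and 12 largest falls at 4 pulses, 2 arrays against 2 at each pattern. The genes were chosen at 4 pulses, and the black points lie furthest from 0 in all 24; Egr1 lies at 2.44 at 4 pulses and 0.84 with tonic GnRH, and Zbtb17 at -1.94 and, at 8 pulses, 0.42.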

How the data were processed

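The study profiled 20 samples of LβT2 cells, 2 per group, on 1-colour Affymetrix mouse arrays. The deposited values are signal intensity per probe set, made by the authors with MAS5, per the submitters' processing notes. The MAS5 version, chip definition and scaling target were not given in the sources used here. On every array the trimmed mean was 2501.2 to 2501.7, as scaling to a common mean leaves it. Groups came from the sample titles.

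From the deposited table, 66 controls were left out and log2(signal + 167) was taken; the constant is the table's 25th percentile. Probe sets above 427 (the 40th percentile) on 2 or more arrays were tested with limma 3.58.1 in R 4.3.3, in one model with a mean per group over all 20 arrays (10 residual degrees of freedom), with eBayes with intensity trend and Benjamini-Hochberg adjustment. Where a gene had several probe sets, the brightest on average (log2) stood for it. GEO's platform annotation named 10833 probe sets with 1 symbol and 396 with several, 1193 were unnamed here, and the symbol of 10817 probe sets was found in RefSeq. Of the tested probe sets 1765 carry a letter suffix, and only some of these letters mark probes shared with other transcripts. The number of arrays limits the precision. The named genes are the 12 largest rises and falls, the 4 largest calls of each list, a set of GnRH response genes and the 3 of smallest p in each difference of dose differences; other list members are given as examples chosen after their values were seen. The members and lists were chosen with earlier results of these data known. The procedure was tested on simulated data with independent arrays. The simulation held no effect of letter or RNA quality, so it says nothing on either. Alternatives covered scaling, filter, constant, code letter, Gapdh ratio, annotated groups and single arrays.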

Additional observations from a re-analysis of the deposited data

How the results depend on the processing

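The count of 540 probe sets for 100 nM against 10 nM at 4 pulses was 344 without intensity trend, 354 with only the compared arrays, 119 with the Gapdh ratio as a covariate, 323 with the code letter and the Gapdh ratio together (added after seeing the data), 0 with groups from the annotated pulse number, and 322, 57, 142 or 206 without 100 nM A, 100 nM D, 10 nM B or 10 nM C; it stayed within 1.5 times under quantile scaling (483), equal medians (442, of which 148 higher), a floor (521), no filter (367) and a stricter filter (623). With the code letter as a replicate block it was 1172. The A minus D difference of a group correlated above 0.1 with that of another in 14 of 15 pairs of groups (0.080 to 0.32). The B minus C difference did so in 6 of 6 pairs of groups (0.13 to 0.35). The doses share no letter, so the letters pair nothing in the difference between doses. Against tonic GnRH the count of 0 became 1 without intensity trend and 0 to 1 with 1 array left out. Against unstimulated cells the 1268 at 100 nM became 1962 with the block, 618 with the Gapdh ratio, 768 with both, 801 with only the compared arrays, 0 with annotated groups and 203, 451, 708 or 1101 without 100 nM D, unstimulated D, unstimulated A or 100 nM A. The 5 at 10 nM became 8 under quantile scaling, 9 with equal medians, 123 with the block, 8 with the Gapdh ratio, 195 with both, 0 with only the compared arrays (937 at an unadjusted p under 0.05), 0 with annotated groups and 0 to 26 with 1 array left out. List medians moved under the stricter filter, which tests fewer genes, to 1.44 (immediate early), -0.22 (gonadotrope), -0.21 (cholesterol) and 0.54 (actin), and with equal medians to 0.29 (actin). Differences that did not pass changed sign for Cga (-0.12 with letter and Gapdh ratio), Gnrhr (-0.0065 with annotated groups) and Inhba (0.28 without 100 nM A, 0.075 without 10 nM C). The causes were not tested.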
